A study of Sus scrofa with 12 samples.

Results

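A set of 70 transcripts of the porcine oocyte kept their level from 0h to 22h of in vitro maturation and were nearly gone at 46h. They were chosen by the mean FPKM (fragments relative to transcript length and to all fragments of the library) of each stage: a 0h mean of at least 10, a 22h mean between 0.8 and 1.25 times the 0h mean, and a 46h mean of at most 0.125 times the 22h mean. The rule found 70 of the 31908 genes in the files. Of the 3191 genes with a 0h mean of at least 10 FPKM, 1092 stayed inside the 22h window, and the 70 members are 6.41% of these. A gene symbol was at hand for 61 members, and the other 9 carry only an identifier.

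The oocytes came from antral follicles of prepubertal gilts (Sus scrofa, strain not given). They were matured as pooled cumulus-oocyte complexes with gonadotropins, EGF and follicular fluid, and were stripped of cumulus cells at 0h, 22h and 46h. The paper takes these times as germinal vesicle, before metaphase I and metaphase II. It relies on an earlier count at similar times, in which not every oocyte was at the named stage. No selection by meiotic stage is described, so a library can hold oocytes of other stages. Stage below means the time in culture. Each stage has 4 libraries of pooled oocytes, 12 in all, amplified by SMART-Seq2, and no library is of a treatment other than the time in culture. The labels give 22h for the middle stage, whereas the design text gives 24h, and 22h is used here. Nothing in the labels says that the replicates came from separate collections, so p-values measure only the spread between these libraries.

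A fully grown oocyte is transcriptionally silent, so it runs meiosis on messenger RNA stored during growth. Many of these stored messengers are kept with short poly(A) tails. During maturation some stored messengers receive a longer tail in the cytoplasm and are translated, and others lose their tail and are degraded. Sequence elements near the 3′ end of a messenger, such as the cytoplasmic polyadenylation element bound by CPEB1, take part in that choice. SMART-Seq2 starts its cDNA from an oligo-dT primer on the poly(A) tail, so a messenger that was degraded and one that only lost its tail cannot be told apart in these libraries. All values are relative to the library, so a lower FPKM is a lower share of the polyadenylated RNA.

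Every level and every change between stages below belongs to the values that chose the members. They are therefore given as a description. Where the members' calls and intervals from the fit over all genes appear, they describe the set and support nothing.

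The libraries carried the labelled cell type. All 11 oocyte markers found in the files, zona pellucida genes and BMP15 among them, had a mean of at least 1 FPKM. They summed to 14392 to 23879 FPKM in 0h libraries, 20159 to 28983 in 22h libraries and 10228 to 13881 in 46h libraries. Of the 11, 9 were called lower at 46h than at 22h, where 32.6% of all tested genes were. GDF9 is among the 9, and as a member its fall was fixed by the rule. Of 13 cumulus and granulosa markers, 3 (LHCGR, AMHR2 and INHA) were listed at 0 in every library and only VCAN and STAR reached a mean of 1 FPKM. These 13 summed to 36.6 to 85.5 FPKM in 0h libraries, 52.0 to 82.2 in 22h libraries and 111 to 139.9 in 46h libraries, most of it VCAN. VCAN was called higher at 46h than at 22h (log2 fold change 0.96, limma adjusted p = 0.0088). It was also called higher at 46h than at 0h (1.18, limma adjusted p = 0.0015), whereas STAR was not called. Markers of theca, stroma and endothelium summed to 9.76 to 12.25, 7.22 to 23.06 and 22.92 to 25.6 FPKM at 0h, 22h and 46h. Among them PECAM1 was called higher at 46h than at 0h, but not at 46h against 22h. Blood and immune markers summed to 2.55 to 4.17, 2.81 to 6.58 and 2.97 to 4.52 FPKM. The part of these other cell types in the results was not tested. Total FPKM ran from 697468 to 802184, and the mitochondrially encoded genes made up between 1.79% and 3.76% of it in 0h libraries and between 12.8% and 16.7% in 46h libraries. The number of reads behind the libraries is unknown.

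Together the 70 transcripts made up between 1.36% and 1.97% of all FPKM in the 0h libraries, between 1.67% and 1.92% in those of 22h, and between 0.0687% and 0.0781% in those of 46h. The 46h libraries lay far below all others, and the 0h and 22h libraries overlapped. The median member had a mean of 49.4 FPKM at 0h, 54.5 at 22h and 2.62 at 46h, which left a median of 6.70% of the 22h level. In 14 members less than 2.5% was left and in 30 less than 5%, whereas 15 kept 10% or more. At 22h 2 members ranked among the 100 highest genes and 29 among the 1000 highest. At 46h none and 2 did, respectively, and 20 members had a mean under 1 FPKM. SMIM26, which is listed at 0 in every 46h library, is counted as 0 in these numbers.

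**Figure D1:**
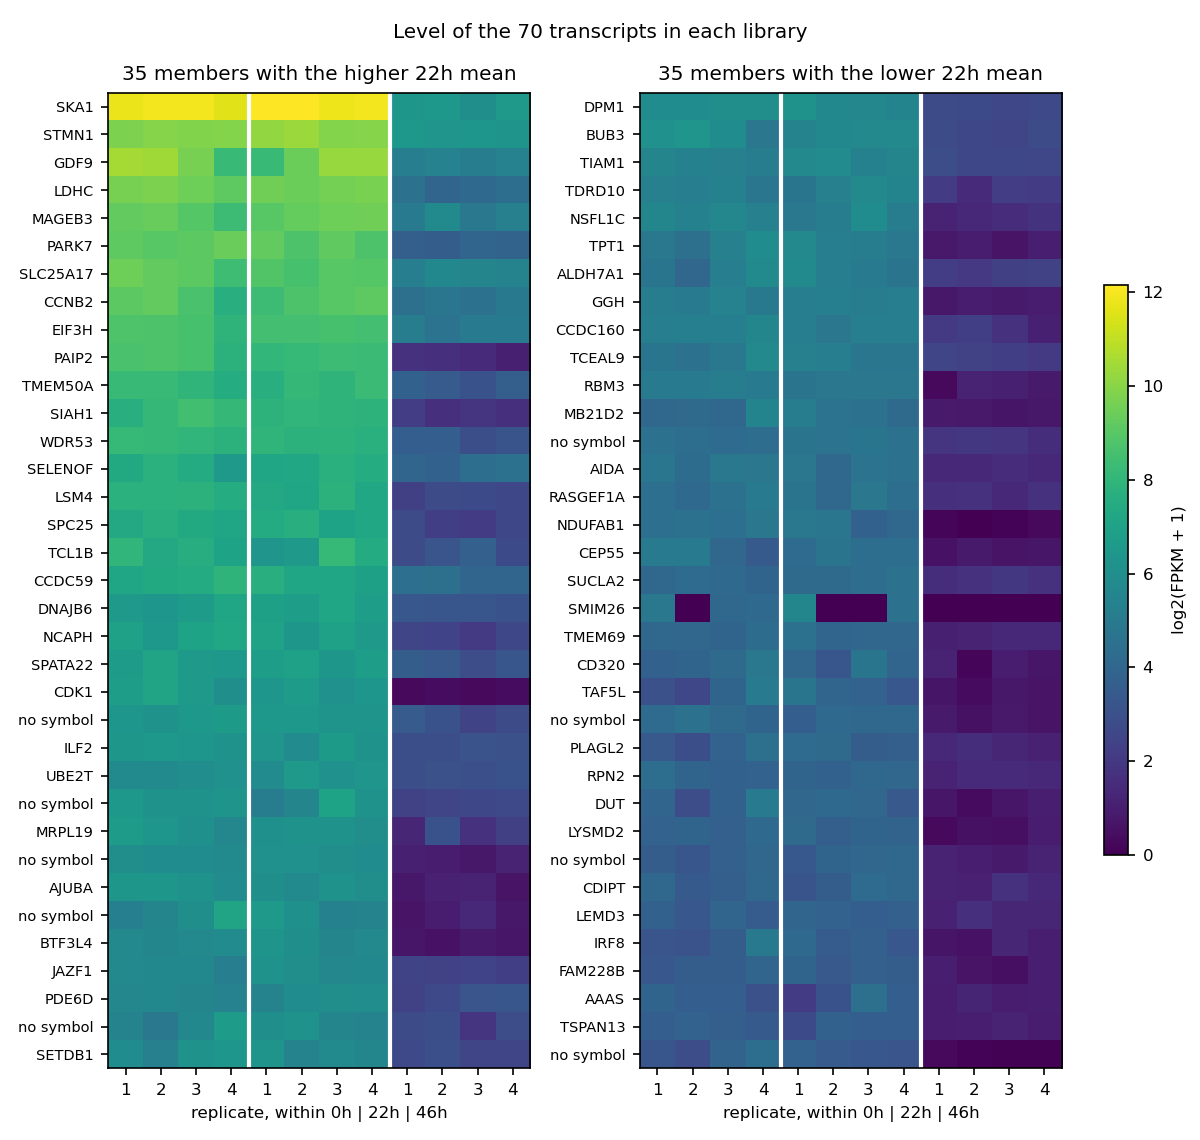
Level of each of the 70 transcripts, as log2(FPKM + 1) by colour, in the 12 libraries (columns, replicates 1 to 4 of 0h, 22h and 46h). Rows are ordered by the 22h mean, from SKA1 at 4184 FPKM down. The 46h columns are darker in every row, and the 0h and 22h columns of a row are mostly alike, with SMIM26 listed at 0 in 3 of these 8 libraries.

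The members sit at the low end of a broad distribution. Among the 1092 genes that kept their level to 22h, the median gene had 97.9% of its 22h level at 46h, and 527 genes were higher at 46h than at 22h. A 46h mean of at most 0.5 times the 22h mean was seen in 263 of the 1092 genes, and of at most 0.25 times in 137. There was no gap at the limit of 0.125. TCEAL9 (0.1249) and SUCLA2 (0.1248) were just inside it, and DBX2 (0.1276) was just outside. At the lower edge of the 22h window the members LSM4 (0.805) and BUB3 (0.815) lay beside WDR35 (0.790) and CACYBP (0.789), which were left out. At the upper edge JAZF1 (1.244) and MAGEB3 (1.243) were inside and COLGALT2 (1.277) outside. At the 0h minimum AAAS (10.92 FPKM) and FAM228B (11.28) were inside and KIN (9.315) outside.

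**Figure D2:**
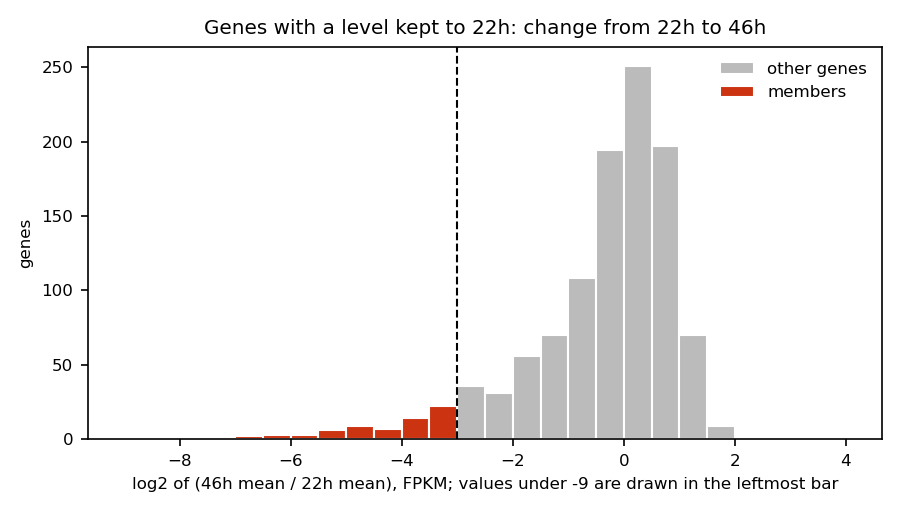
Number of genes (vertical axis) by the log2 ratio of the 46h to the 22h mean FPKM (horizontal axis) among the 1092 genes with a level kept to 22h. The 70 members (red) lie left of the dashed line, the limit of the rule, and form the left tail of a distribution whose tallest bar holds 251 genes just above no change. SMIM26, listed at 0 at 46h, has no log2 ratio and is drawn in the leftmost bar.

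The libraries of 22h and 46h did not overlap in 69 of the 70 members. Over the 7013 genes tested, those whose mean reached 1 FPKM, every 46h library was below every 22h library in 35.4%. In a limma fit over all 12 libraries, with a call at a Benjamini-Hochberg adjusted p under 0.05 and a fold change over 1.5, 69 members were lower at 46h than at 22h, where 32.6% of the 7013 genes were. Against 0h all 70 were lower at 46h, where 39.1% of the genes were. Between 0h and 22h no member was called, where 26.7% of the genes were called in either direction (1 member was called lower at 22h when replicate 3 of 22h was left out), and 1 member, RBM3, had libraries of these 2 stages that did not overlap, where 28.9% of the genes did. The rule fixed these counts, and nothing is read from them. The 95% interval of the change from 0h to 22h held 0 in all 70 members, with a median half-width of 0.45 and a widest of 2.61 on the log2 scale, so the word stable covers differences of that size.

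The member that was not called lower at 46h than at 22h is SMIM26, which encodes a small mitochondrial membrane protein. All 70 members, SMIM26 included, were called lower with the replicate number as a block, and without replicate 2 or replicate 3 of 22h. It was listed at 28.2, 0, 16.2 and 17.1 FPKM at 0h, at 47.4, 0, 0 and 21.8 at 22h and at 0 in all 4 libraries of 46h. An exact 0 between libraries of this level can be a failed estimate, and no mean or fold is given for this gene. It is a member because the rule took the listed values as they stand.

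The choice was repeated with the libraries of 1 replicate number left out, and the left-out libraries were then read. This gave 57, 76, 72 and 75 genes when replicates 1, 2, 3 and 4 were left out, of which 49, 61, 54 and 47 are members. In the 3 left-out libraries the 46h value was at most 0.125 of the 22h value in 52, 62, 61 and 67 of these genes. These are 81.6% to 91.2% of the chosen genes, where the same limit was met in the same libraries by 9.76% to 13.7% of all genes with a 0h mean of at least 10 FPKM. The 22h value was within 0.8 to 1.25 of the 0h value in 19, 31, 36 and 22 of them, that is 33.3%, 40.8%, 50% and 29.3%, where 28.0%, 25.3%, 34.0% and 24.6% of all such genes were. It was within a factor of 2 in 48, 68, 68 and 47, or 84.2%, 89.5%, 94.4% and 62.7%, where 73.9%, 67.1%, 78.3% and 62.9% of all such genes were. The highest 46h value in left-out libraries was 783.7% of the 22h value, in a gene chosen without replicate 4.

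Within a stage the median coefficient of variation over members was 21.6% at 0h, 19.2% at 22h and 20.7% at 46h. In 11 members the 0h libraries were more than 3-fold apart, and in 5 the 22h libraries were. Replicate 4 of 0h stood apart from its stage: it held the lowest 0h value of 33 members and the highest of 28, and its correlation with the other 0h libraries was 0.934 to 0.970. Without this library the rule found 68 genes, of which 49 are members.

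Chromosome segregation and the cell cycle account for 9 named members, which kept between 0.325% and 11.3% of their 22h level. SKA1, the microtubule-binding subunit of the SKA complex at the outer kinetochore, was the most abundant member. It stood at 3554, 3982, 3983 and 3106 FPKM in replicates 1 to 4 of 0h, at 4552, 4539, 3676 and 3968 at 22h, and at 85.1, 87.6, 65.4 and 90.2 at 46h. All 8 earlier libraries were far above the 4 of 46h, which held 1.96% of the 22h mean.

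CDK1 is the catalytic subunit of maturation promoting factor, the kinase that drives germinal vesicle breakdown and entry into both meiotic divisions. Its values were 110.5, 135, 89.8 and 65.9 FPKM at 0h, 83.1, 103, 70.2 and 82.5 at 22h, and 0.24, 0.32, 0.22 and 0.32 at 46h. Only 0.325% of the 22h mean was left, at a 46h level too low to rank it against NDUFAB1. CCNB2, a B-type cyclin that activates CDK1, was at 538, 592, 405 and 204.5 FPKM at 0h, at 323, 436, 515 and 556 at 22h, and at 21.5, 26.6, 21.9 and 28.9 at 46h, or 5.40% of the 22h mean. The 0h libraries of CCNB2 ran from below the lowest to above the highest 22h library, while the 46h libraries stayed close together.

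STMN1 (stathmin), which binds tubulin dimers and destabilises microtubules, had means of 927 ± 49.8 (SD, n = 4), 1096 ± 155 and 82.0 ± 4.59 FPKM at 0h, 22h and 46h. SPC25, a subunit of the NDC80 complex that anchors microtubules at kinetochores, had 166 ± 19.9, 164 ± 26.9 and 4.49 ± 1.18. NCAPH, the kleisin subunit of condensin I, had 124 ± 25.4, 107 ± 20.8 and 4.43 ± 0.861. In each of these 3 the 46h libraries lay below all earlier ones. BUB3, a spindle checkpoint protein, was at 70.8, 81.2, 59.2 and 27.6 FPKM at 0h, at 41.8, 50.7, 51.2 and 51.0 at 22h and at 5.86, 5.16, 4.77 and 6.12 at 46h. CEP55 (abscission in cytokinesis) kept 3.22% and SPATA22 (meiotic recombination) 8.40% of the 22h mean.

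**Figure D3:**
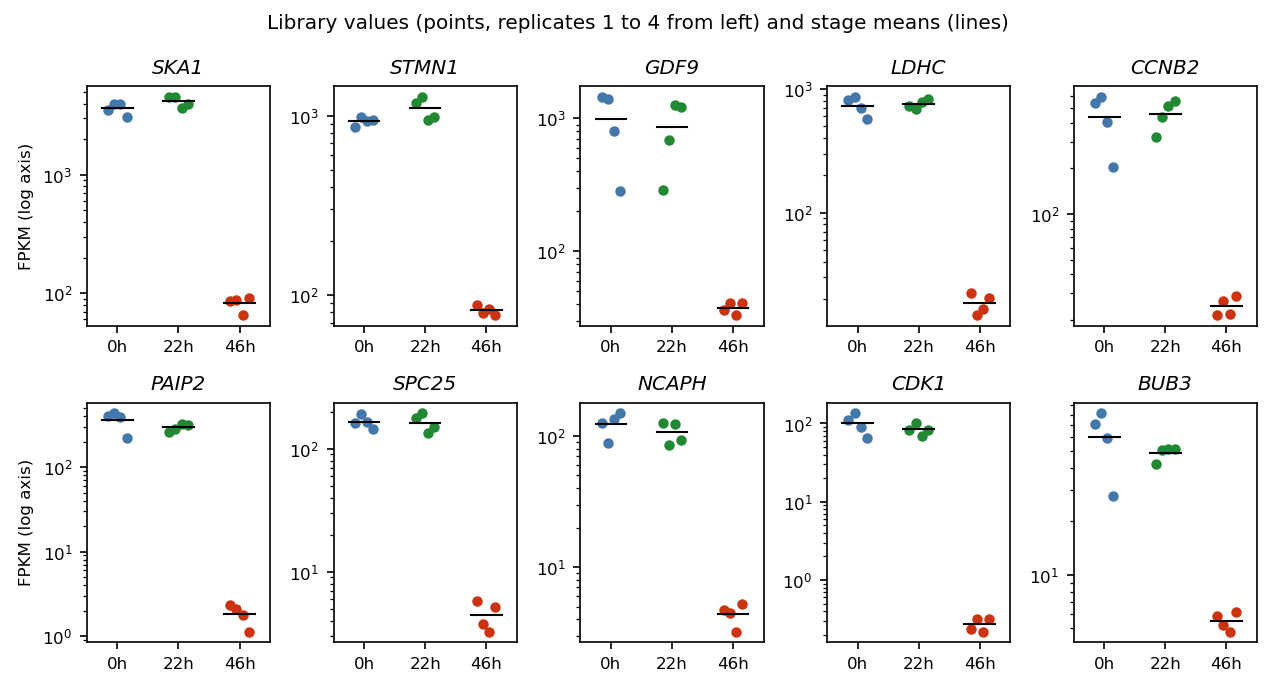
FPKM on a log axis of 10 members in each library at 0h, 22h and 46h (points, replicates 1 to 4 from left), with the mean of each stage as a line. GDF9, CCNB2 and BUB3 have a low replicate 4 at 0h, and in all 10 genes the 46h points lie below the other 8.

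Another 9 members bind RNA or act in translation, and they kept a median of 3.19% of the 22h level. PAIP2, which binds poly(A)-binding protein and keeps it from stimulating translation, was at 405, 435, 389.6 and 223 FPKM at 0h, at 265, 285, 323 and 315 at 22h and at 2.35, 2.07, 1.78 and 1.13 at 46h. The 46h libraries held 0.617% of the 22h mean. EIF3H, a subunit of the initiation factor that joins the messenger to the small ribosomal subunit, had means of 375 ± 93.8, 375 ± 12.4 and 30.05 ± 4.71 FPKM. LSM4, part of the LSM ring that binds U6 RNA or the ends of decaying messengers, had 210 ± 16.8, 169 ± 35.5 and 5.15 ± 0.851. The RNA-binding protein ILF2 kept 9.07%, the cold-inducible RBM3 3.19%, the mitochondrial ribosomal protein MRPL19 5.53% and TDRD10, a tudor domain protein, 7.71%. BTF3L4 (1.11% left) and TPT1 (2.19% left) were at or below 1.04 FPKM in every 46h library. TPT1 has near-identical copies in mammalian genomes, so the assignment of its reads is uncertain.

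A further 12 members serve metabolism and mitochondria. LDHC, the lactate dehydrogenase of germ cells, was at 811, 864, 699 and 568 FPKM at 0h, at 733, 685, 784 and 831 at 22h and at 22.4, 14.8, 16.6 and 20.2 at 46h. Its 0h and 22h libraries overlapped, and 2.44% of the 22h mean was left. PARK7, a redox-sensitive protein, had means of 573 ± 64.3, 511 ± 92.9 and 12.8 ± 1.67 FPKM, and the peroxisomal carrier SLC25A17 had 543 ± 157, 460.1 ± 50.4 and 43.1 ± 6.31. NDUFAB1, the acyl carrier protein of mitochondria and a subunit of respiratory complex I, was at 20.8, 22.2, 20.7 and 27.3 FPKM at 0h and at 28.04, 25.99, 12.7 and 16.2 at 22h. At 46h it was at 0.12, 0, 0.07 and 0.22, that is 0.494% of the 22h mean. SUCLA2, the ATP-forming subunit of succinyl-CoA synthetase, had 16.4 ± 1.66, 19.0 ± 2.16 and 2.37 ± 0.366 FPKM. ALDH7A1 (lysine breakdown) was among the variable members, with 15.2 to 55.6 FPKM at 0h, and kept 10.4%. GGH, which trims folate polyglutamates, was among the steadiest, with 0h libraries of 28.7 to 40.9 FPKM, 22h libraries of 33.7 to 37.1 and 46h libraries of 0.74 to 0.98. DUT, which clears dUTP, kept 4.69%, the cobalamin uptake receptor CD320 4.62%, TMEM69 8.29% and CDIPT, which makes phosphatidylinositol, 12.2%.

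Of the 7 members of the endoplasmic reticulum, protein folding and the ubiquitin system, SIAH1, a ubiquitin ligase, kept the smallest share. It was at 200.3, 273, 354 and 274 FPKM at 0h, at 227, 255, 242 and 232 at 22h and at 3.63, 2.16, 2.56 and 2.13 at 46h, where 1.10% was left. The other 6 kept more. DPM1 (dolichol-phosphate mannose synthesis) kept 10.2%, RPN2 (a subunit of oligosaccharyltransferase) 11.3%, SELENOF 10.1%, the co-chaperone DNAJB6 6.85%, the ubiquitin-conjugating UBE2T 9.31% and NSFL1C (p47, a cofactor of p97) 4.59%.

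GDF9 is the growth factor by which the oocyte acts on its cumulus cells, and it led the 8 members with roles as ligands or in signalling. It was at 1451, 1391, 806 and 287 FPKM at 0h, at 289, 690.3, 1260 and 1223 at 22h and at 36.1, 40.6, 33.3 and 41.0 at 46h. The 0h libraries were 5.06-fold apart and those of 22h 4.36-fold, whereas those of 46h lay together at 37.8 ± 3.73 (SD, n = 4), with 4.36% of the 22h mean left. AJUBA, a LIM-domain scaffold, had 74.4 ± 13.2, 65.4 ± 8.17 and 0.932 ± 0.331 FPKM. TCL1B kept 5.09%, and PDE6D, TIAM1, RASGEF1A, AIDA and TSPAN13 kept between 7.58% and 11.7%.

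A group of 8 members acts in chromatin, transcription or the nuclear envelope, with a median of 9.92% left. SETDB1, a histone H3 lysine methyltransferase, had 62.3 ± 18.8, 55.3 ± 15.6 and 5.50 ± 0.877 FPKM. TAF5L is a subunit of histone acetyltransferase complexes. With SMIM26 and GDF9 it was among the 3 named members whose 0h libraries had the widest ratio of highest to lowest. It ranged from 4.95 to 32.5 FPKM at 0h. It was at 8.99 to 25.2 at 22h and at 0.30 to 0.74 at 46h, below all earlier libraries. The transcription cofactor JAZF1 kept 7.32%, the zinc finger factor PLAGL2 10.7%, the interferon regulatory factor IRF8 7.39%, TCEAL9 12.5%, the nuclear pore protein AAAS 9.88% and the inner nuclear membrane protein LEMD3 12.2%. The other members with a symbol included MAGEB3, a MAGE family gene with 515 ± 145, 640.3 ± 103 and 38.7 ± 12.1 FPKM, TMEM50A with 252 ± 51.6, 254 ± 50.9 and 10.5 ± 2.23, and WDR53 with 258 ± 26.6, 229 ± 15.8 and 9.29 ± 2.51. CCDC59 kept 11.9%, CCDC160 7.79%, FAM228B 6.55%, LYSMD2 3.52% and MB21D2 3.01% of the 22h mean.

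Several members are a single subunit of a complex, and the other genes of these complexes, which the rule did not choose, did not all go with them. Such partner genes in the files numbered 39, of which 33 were tested in the limma fit. At 46h against 22h, 13 were lower, 4 were higher and 16 were not called, where 32.6% of all tested genes were lower and 9.87% higher. The tally depended on the scaling, with 10 lower and 10 higher by median-of-ratios and 9 lower and 8 higher by quantile normalization. The calls over all tested genes moved too, with 23.3% of them higher in the reported fit, 44.0% by median-of-ratios and 55.4% by quantile normalization. These partners were listed by complex once the members were known, and genes that met the rule are not among them. That they fell less than the members is thus largely built in.

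CDK1 and CCNB2 differed from CCNB1, the other main B-type cyclin of the oocyte. CCNB1 was at 615 ± 293 FPKM at 0h, 680 ± 211 at 22h and 1193 ± 99.2 at 46h. Its log2 fold change from 22h to 46h was 0.87 (95% interval 0.13 to 1.62, limma adjusted p = 0.051), which missed the threshold. It was called higher with 2 of the 4 other scalings, median-of-ratios (1.23, adjusted p = 0.020) and quantile (0.89, adjusted p = 0.025). CCNB3 went from 13.1 ± 1.60 to 8.36 ± 1.13 (log2 fold change -0.59, limma adjusted p = 0.013) and was not called with either of these scalings. With 1 library left out, CCNB1 was called higher without replicate 1, 2 or 4 of 0h or replicate 4 of 22h (adjusted p = 0.041, 0.044, 0.0083 and 0.046), and its adjusted p was 0.060 to 0.16 without any other. The call of CCNB3 was lost without replicate 2, 3 or 4 of 22h or replicate 2 of 46h, where its fold change came to 1.5 or less.

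The 4 subunits of the NDC80 complex did not move together. SPC25 held to 22h and was nearly lost at 46h, whereas SPC24, with which it pairs, was already lower at 22h, at 237 ± 58.7, 41.8 ± 20.9 and 2.41 ± 0.647 FPKM. NDC80 itself rose from 163 ± 31.3 at 22h to 359 ± 36.4 at 46h (log2 fold change 1.15 ± 0.21 SE, limma adjusted p = 0.00039). NUF2, the partner of NDC80, stood at 144 ± 30.6, 140.1 ± 21.5 and 177 ± 14.7 and was not called, but was called higher with median-of-ratios scaling (0.69, adjusted p = 0.028). SKA2, beside SKA1, fell from 45.8 ± 13.2 to 9.35 ± 2.25 FPKM (log2 fold change -2.16, limma adjusted p = 1.4e-06), and SKA3 was at or below 1.77 FPKM in every library.

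No other tested gene of condensin I or of the checkpoint group beside BUB3 was called lower. Of the other condensin I genes, SMC2 rose from 88.2 ± 8.73 to 144 ± 20.6 FPKM (log2 fold change 0.70 ± 0.15 SE, limma adjusted p = 0.0019). SMC4 (137 ± 9.99 to 148 ± 10.05) and NCAPG (189.7 ± 49.6 to 241 ± 46.5) were not called, and NCAPG was called higher with median-of-ratios scaling. Of the checkpoint genes beside BUB3, MAD2L1 rose from 332 ± 75.9 to 714 ± 65.4 FPKM (log2 fold change 1.13 ± 0.26 SE, limma adjusted p = 0.0023). BUB1, BUB1B and TTK were not called, and BUB1B was called higher with median-of-ratios and quantile scaling.

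PAIP2 and PAIP1 have opposed roles, since PAIP1 binds poly(A)-binding protein and promotes translation. PAIP1 stood at 1009 ± 320, 999 ± 73.0 and 942 ± 112 FPKM and was not called at 46h against 22h, with a 95% interval of the log2 fold change from -0.56 to 0.38. PAIP2B, a paralogue of PAIP2, was low at 3.71 ± 1.16 and fell to 1.59 ± 0.251 (limma adjusted p = 0.0047), a call lost with quantile scaling.

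BMP15, which acts together with GDF9, followed another course. It rose from 3077 ± 1680 FPKM at 0h to 5614 ± 1974 at 22h (log2 fold change 0.95, limma adjusted p = 0.031) and fell to 2329 ± 358 at 46h (-1.22, limma adjusted p = 0.0051), still at 41.5% of its 22h mean. In succinyl-CoA synthetase, SUCLG1 fell at both steps, from 67.1 ± 11.6 to 32.1 ± 10.6 and 6.59 ± 1.62, but SUCLG2, the GTP-forming counterpart of SUCLA2, rose from 95.5 ± 6.86 to 194 ± 19.0 (log2 fold change 1.01 ± 0.14 SE, limma adjusted p = 3.2e-05). LDHA fell at both steps, from 188 ± 75.1 to 62.5 ± 26.1 and 16.3 ± 5.17. LDHB was low, went from 2.17 ± 0.298 at 22h to 3.54 ± 0.943 at 46h (log2 fold change 0.50, limma adjusted p = 0.047, under the fold required) and was called higher with median-of-ratios (0.76) and quantile (0.996) scaling. In the LSM ring LSM2, LSM3 and LSM6 fell with LSM4, whereas LSM5 (138 ± 60.0 to 93.8 ± 11.1) and LSM7 were not called. In oligosaccharyltransferase RPN1 (log2 fold change -1.25) and DAD1 (-0.67) were called lower beside RPN2, and STT3A and STT3B were not called. Of the cofactors of SETDB1, TRIM28 was called lower (-0.70) and ATF7IP was not called. The calls of NDC80, SMC2, MAD2L1 and SUCLG2 as higher held with each of the 4 other scalings.

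**Figure D4:**
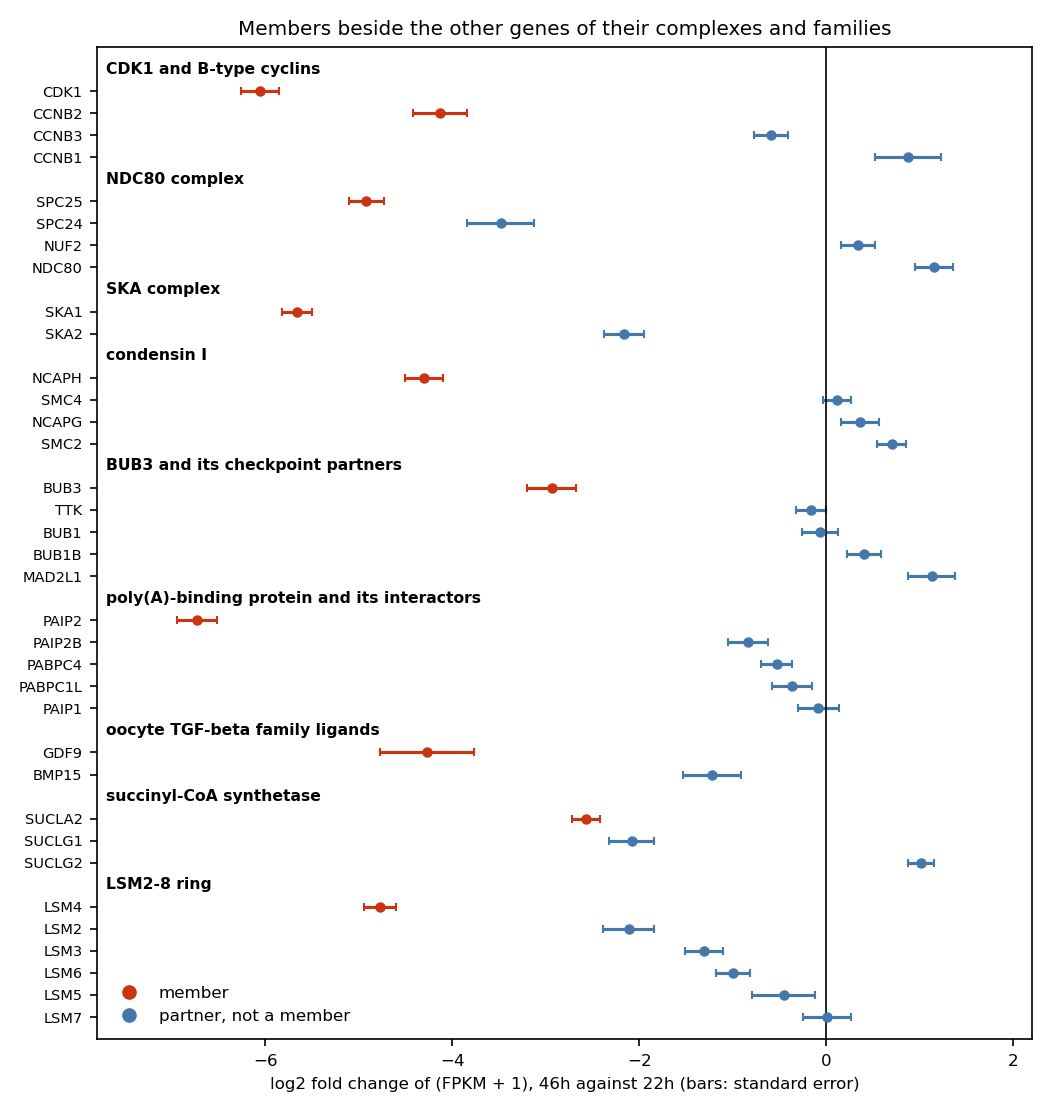
Log2 fold change of FPKM + 1 from 22h to 46h (points, with standard error as bars, 4 libraries a stage) for members in red and for the other tested genes of the same complex or family in blue. The groups of lactate dehydrogenase, DPM synthase, oligosaccharyltransferase and SETDB1 are not drawn. The members of a group lie left of their partners, which is largely built in, since the rule chose members by a steep fall to 46h. NDC80, SMC2, MAD2L1 and SUCLG2 lie right of 0.

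The wider pathway lists held 0 to 3 members each, where members are 0.998% of all tested genes. The list of meiotic cell cycle control held 43 tested genes, of which 14 were lower and 7 higher at 46h than at 22h, and CDK1, CCNB2 and BUB3 are the 3 members among them. Over all tested genes 32.6% were lower and 9.87% higher, so the list was lower as often as all genes. The median log2 fold change of that list was 0.01, beside -0.26 over all genes tested. With median-of-ratios scaling, which moves the median of all genes to 0.02, the count was 12 lower and 15 higher. Of the calls over all tested genes, 44.0% were then higher, beside 23.3% in the reported fit. The nuclear-encoded respiratory chain had 34 lower and 3 higher of 55 tested, with NDUFAB1 as its only member, and 30 of its genes were already lower at 22h than at 0h, where 18.9% of all tested genes were. The 40 tested cytosolic ribosomal protein genes included no member, although 31 were lower and 2 higher at 46h than at 22h. The translation factors had 21 lower and 2 higher of 39, with EIF3H and TPT1 as members. The list for the decay of maternal messengers (13 lower, 6 higher of 42) and that for their storage and cytoplasmic polyadenylation (7 lower, 3 higher of 31) held no member, and neither was lower more often than all genes. With quantile scaling the decay list stood at 9 lower and 15 higher, where 55.4% of the calls over all tested genes were higher. Over the 4 other scalings the genes called lower numbered 29 to 35 in the respiratory chain, 27 to 31 among the ribosomal proteins and 15 to 22 among the translation factors.

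Transcript features were no part of the rule, and were read from RefSeq on Sscrofa11.1 for 59 of the 70 members. They are set beside 247 of the 294 genes that passed the same 0h and 22h limits and kept 0.8 to 1.25 of the 22h level at 46h (kept genes), and beside 2593 of the 3191 genes with a 0h mean of at least 10 FPKM. The members had shorter transcripts, with a median of 1405 bases against 3196 in kept genes and 2467 in all. The coding sequence (924, 1545 and 1158 bases), the 3′ untranslated region (430, 915 and 680 bases) and the number of exons (7, 12 and 9) were ordered the same way. The GC content of the transcript was 47.2% in the median member, 43.2% in kept genes and 45.5% in all. Genes are not replicates, and no test was made. The FPKM of a transcript is itself computed from its length, and the part of this in the difference was not tested. Where a gene had a curated (NM) RefSeq record, the longest of these was taken, otherwise the longest predicted one. In 6 members the record ends at the stop codon, which leaves out any 3′ untranslated region. The 5th percentile of this region was 0 bases in members, 20.2 in kept genes and 27 in all. The part of such short records in the difference was not tested.

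Motifs were searched on the sense strand in the last 150 bases of the transcript. The cytoplasmic polyadenylation element, searched as TTTTAT or TTTTAAT, was matched in 13 members (22.0%), in 38.5% of kept genes and in 29.7% of all. Among transcripts with a 3′ untranslated region of at least 150 bases the shares were 23.4% (11 of 47), 39.3% and 32.4%. The polyadenylation signal, searched as AATAAA or ATTAAA, was matched in 81.4%, 80.2% and 76.4%. Among transcripts with such a 3′ untranslated region the shares were 89.4%, 84.5% and 80.6%. The Pumilio element TGTANATA was matched in 6.78%, 9.31% and 7.02%, and the AU-rich TATTTAT in 3.39%, 3.24% and 5.51%. These shares are over all transcripts, in some of which the window held coding sequence. TTTTAT and TATTTAT share letters and can overlap, and each was counted on its own. A match is a run of letters, not a shown binding site, and no match says only that these letters are not in this window.

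**Figure D5:**
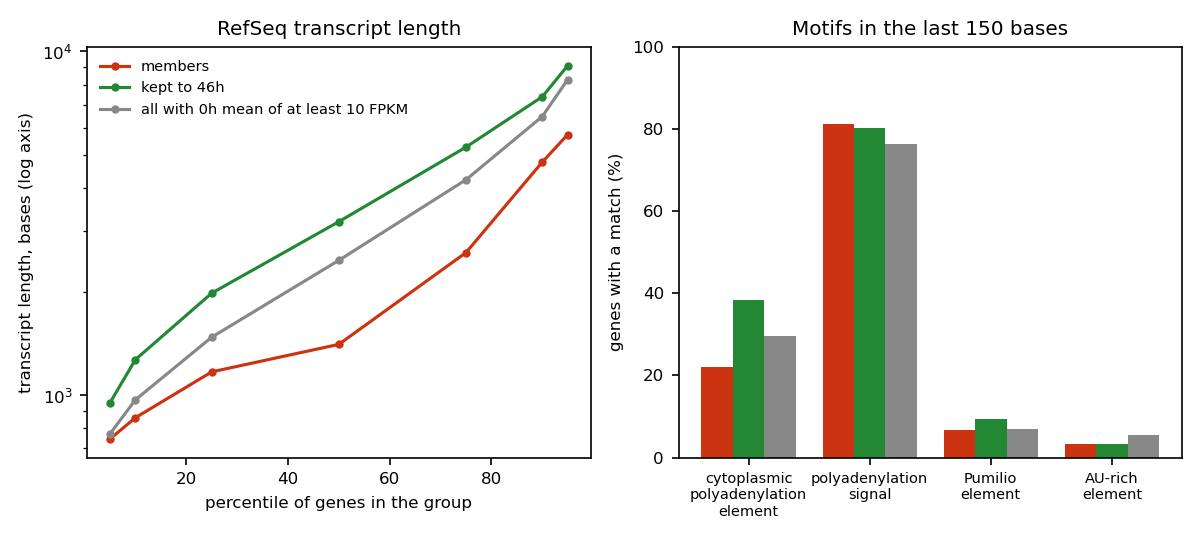
Left, RefSeq transcript length in bases on a log axis at the 5th to 95th percentile of members (red), kept genes (green) and all genes with a 0h mean of at least 10 FPKM (grey). Right, percent of the genes of each group, in the same colours, with a match in the last 150 bases of the transcript. Members are shortest at each percentile drawn, and their share with a cytoplasmic polyadenylation element is 22.0%, against 38.5% in kept genes.

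The same motif was counted in the partner genes, and no test of a difference was made. It was matched in NDC80, SMC2 and MAD2L1 of the 4 partners called higher, in 6 of the 15 not called that had a transcript, CCNB1 among them, in 3 of the 13 called lower, and in 1, LDHC, of the 14 members of these groups. These sets change with the scaling, as the tally above does. The RefSeq transcript of 6 members, CCNB2, GDF9 and DPM1 of these groups among them, ends at the stop codon, so the window held only coding sequence there. Among transcripts with a 3′ untranslated region of at least 150 bases the element was matched in 3 of 4 partners called higher, 6 of 12 not called, 3 of 11 called lower and 0 of 10 members. The sites below, with flanks of up to 11 bases, are those of all 6 tested cell cycle partners that hold the element and whose 46h mean exceeded the 22h mean. NDC80, SMC2 and MAD2L1 were called higher, and CCNB1, NUF2 and SMC4 were not called. SKA2 and CCNB3, cell cycle partners that were called lower, also hold the element. NCAPG and BUB1B, which had a higher mean at 46h, have no match, nor has SUCLG2, the other partner called higher. Capitals mark the element. Where the window holds 2 matches, as in SMC2, the one nearer the 3′ end is shown.
CCNB1, chr16:47348301-47348329, plus strand: aaaaatgagaaTTTTAATttatattcaaa
NDC80, chr6:104000844-104000871, minus strand: acttgttggatTTTTATttttagatatg
SMC2, chr1:245458895-245458922, plus strand: tttaattatcaTTTTATaagtaacttgt
MAD2L1, chr8:103936592-103936619, plus strand: taaaaatgcctTTTTATgtttcataaaa
NUF2, chr4:87162953-87162981, minus strand: gtgagttttttTTTTAATatactctcata
SMC4, chr13:100120758-100120784, plus strand: ttagccatcTTTTAATtaaaggctgca

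LDHC and CEP55 are members that hold the element, which was thus found on both sides. Each has 2 matches in the window, and the one nearer the 3′ end follows, with the element in capitals.
LDHC, chr2:40748904-40748931, minus strand: tagactgtataTTTTATatttggaaact
CEP55, chr14:104980590-104980617, plus strand: accaaaacattTTTTATttcttcagttt

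Shown next, with flanks of up to 11 bases, is the polyadenylation signal of CDK1, SPC25, NCAPH, BUB3 and SKA1. These are the cell cycle members of the same complexes, without CCNB2, whose window held only coding sequence. In the searched window each had a polyadenylation signal, in capitals, and no match to the element. SKA1 has 2 such signals, of which the last is shown.
CDK1, chr14:64248881-64248908, plus strand: tttgttactacAATAAAactatataaat
SPC25, chr15:75357016-75357043, minus strand: agtagaagcttAATAAAtacgtgttagt
NCAPH, chr3:46852393-46852420, minus strand: taatgcttaaaAATAAAatcattcagaa
BUB3, chr14:132715315-132715342, plus strand: ccatgctgtctAATAAAtcagagattca
SKA1, chr1:99993455-99993482, plus strand: aacttaaaaaaAATAAAgtatgtatatt

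All coordinates are of Sscrofa11.1, and the sites lie in the last exon of the RefSeq transcript. The other 11 members with the element are SLC25A17, LEMD3, PLAGL2, TIAM1, TCEAL9, MRPL19, CCDC160, TMEM69, IRF8, SIAH1 and BTF3L4. Their share left at 46h ran from 1.10% in SIAH1 to 12.5% in TCEAL9.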

How the data were processed

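Denuded porcine oocytes gave 12 RNA libraries, 4 each at 0h, 22h and 46h. The authors trimmed the reads, aligned them to Sscrofa11 with STAR and quantified genes with RSEM, and deposited 1 FPKM value per Ensembl identifier, with 2 decimals. The study tested HTSeq counts, which were not used here. Depth is unknown, and the spread over 4 libraries is the measure of precision.

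The members and all lists were chosen with earlier results of these data known. Symbols (15029 identifiers), transcripts and coordinates are RefSeq's on Sscrofa11.1, matched by identifier and symbol. For comparisons, log2(FPKM + 1) was fitted for the 7013 genes whose mean reached 1 FPKM in limma 3.58.1 (R 4.3.3) with the stage as the only factor and an intensity trend, two-sided, with Benjamini-Hochberg adjustment over these genes. Fold changes on this scale understate the change of low genes. The fit was tested on simulated data. Named members are the 12 most abundant at 22h, the 8 with the lowest share left, those in a list, those nearest each limit, and the 3 most and least variable. Others were named by role after their values were seen. Alternatives were other scalings, pseudocount, filters, limits of the rule, medians, the replicate block and each library left out. Tables were made with Python 3.11.15 and pandas 2.3.3.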

Additional observations from a re-analysis of the deposited data

Results flagged for a closer look

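In 5 of the 125 sets of 4 libraries examined (36 named members, 5 genes just outside a limit of the rule, and the members' sum, by stage, without SMIM26 at 46h, which is at 0 throughout), 1 library was far from the other 3 by Dixon's criterion for 4 values. Chance flags about 1 in 20 sets, that is 6.25 of 125. In EIF3H at 22h replicate 3 was highest, at 393.35 FPKM, with the others at 366.59 to 370.37. In LSM4 at 0h replicate 4 was lowest, at 184.56 FPKM, with the others at 215.71 to 220.3. In DNAJB6 at 46h replicate 4 was lowest, at 7.25 FPKM, with the others at 8.56 to 8.74. In BUB3 at 22h replicate 1 was lowest, at 41.81 FPKM, with the others at 50.73 to 51.16. In JAZF1 at 0h replicate 4 was lowest, at 35.45 FPKM, with the others at 49.76 to 52.33. Without the library in question the ratio of the 22h to the 0h mean goes from 0.805 to 0.774 in LSM4, which is then no member, from 0.815 to 0.853 in BUB3 and from 1.244 to 1.150 in JAZF1, which stay inside the window. Replicate 4 of 0h is the library in 2 of the 5.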

How the results depend on the processing

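The number of genes found by the rule depended on its limits and on the scaling. Quantile normalization gave 46 genes, 39 of them members, a 22h window of 0.9 to 1/0.9 gave 30, a window of 2/3 to 3/2 gave 111, and a 46h limit of 0.25 gave 137. The other scalings, medians, 0h minimums and a stricter 46h limit gave 52 to 93 genes. Leaving out 1 library gave 60 to 82 genes, of which 49 to 68 are members. A narrower or wider limit changes the count by its construction. The cause of the other moves was not tested. Of 792 fold changes of named members under alternatives, whose direction the rule fixed, 708 moved by less than the replicate spread. Genes called at 46h against 0h numbered 3922, and 2546 with a mean of at least 5 FPKM, where fewer genes were tested. Leaving out 1 library gave 2745 to 3113 calls at 46h against 22h, 1546 to 2172 at 22h against 0h and 3831 to 3961 at 46h against 0h. Of the genes called between 22h and 46h, 23.3% were higher at 46h, 44.0% with median-of-ratios and 55.4% with quantile scaling. With the replicate number as a block, 2933, 1801 and 3894 genes were called for 46h against 22h, 22h against 0h and 46h against 0h. The deviations of same-numbered libraries correlated at 0.0088 to 0.38 between 46h and 22h, where 3 of 4 libraries of 46h correlated best with their own number, and at -0.47 to 0.084 between 0h and the later stages. Not all exceed 0.1, so the numbers were not used as pairs. With 4 libraries a stage and unknown depth, levels under 1 FPKM at 46h are not resolved further.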

Other observations

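Of the 59 members with RefSeq coordinates, 7 lay on chromosome 6 (11.9%, beside 8.37% of the genes with a 0h mean of at least 10 FPKM), 6 on chromosome 4 (10.2% beside 6.52%), 6 on chromosome 2 (10.2% beside 7.44%), 4 each on chromosomes X and 17 (6.78% beside 3.24% and 3.36%), 4 on chromosome 1 (6.78% beside 11.1%) and none on chromosome 8 (3.78% of the genes) or chromosome 16 (57 of these genes). The nearest pair of members, TMEM50A and STMN1, lay 477343 bases apart on chromosome 6. No member was a single-exon gene, beside 19 of the 2593 expressed genes with a transcript. The 9 members without a symbol had 22h means of 10.1 to 82.6 FPKM and kept 0.968% to 10.7% of these at 46h. FIGLA and ZP3, oocyte genes that are no members, also fell steeply at 46h, FIGLA from 38.8 ± 7.75 FPKM at 22h to 1.33 ± 0.344 and ZP3 from 4949 ± 2307 to 95.5 ± 69.7.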
